A study of Mus musculus with 4 samples.

Results

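The CREB family and its coactivators were followed in thymic invariant natural killer T (iNKT) cells with and without a working Mettl3 gene. The 10 genes were taken by name: the bZIP factors Creb1, Crem, Atf1, Atf2 and Atf4, the coactivators Crtc1, Crtc2 and Crtc3, and the acetyltransferases Crebbp and Ep300. All 10 were found among the 53715 gene IDs of the count table, and all 10 were among the 14185 genes that had enough counts to be tested. None of the 10 differed between genotypes past the threshold of edgeR's quasi-likelihood test (Benjamini-Hochberg adjusted p under 0.05 over all tested genes). Creb1 came nearest and was 1.36-fold lower in the knockout. Among listed genes around the family, 1 of 25 in cAMP signalling and 2 of 19 kinases and CRTC regulators passed. So did 6 of 20 genes known to be induced through CREB and 2 of 22 ATF4 targets. The share over all tested genes was 2.59%. Most of these calls were lost on leaving out 1 library or another.

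CREB1, CREM and ATF1 are closely related factors that bind the cAMP response element of promoters as dimers and are switched on by phosphorylation through protein kinase A, calcium-dependent kinases and MAP kinase pathways. The phosphorylated factor recruits the histone acetyltransferases CBP (Crebbp) and p300 (Ep300), while CRTC proteins enter the nucleus once calcineurin removes their phosphates and hold the complex on DNA. ATF2 pairs with Jun proteins and answers to stress kinases, and ATF4 drives the response to amino acid shortage and endoplasmic reticulum stress. In T cells these factors act downstream of the antigen receptor and of receptors that raise cAMP.

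RNA was sequenced from live thymocytes (7AAD-) that bound the CD1d tetramer and carried TCRβ, sorted from C57BL/6 mice aged 6 to 8 weeks. There were 2 libraries labelled WT and 2 from Mettl3fl/flCD4-cre animals, called Mettl3 knockout here, in which Cre under the Cd4 promoter acts in developing T cells and not in iNKT cells alone. The labels do not say whether the WT animals carried a floxed allele or Cre, or whether each library came from a separate animal, so the p-values here speak only of variation among 4 libraries, some of which may be technical. METTL3 is the catalytic subunit of the enzyme that places the m6A mark on mRNA.

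Libraries held 24374587 to 28316016 counts, and levels are given as CPM, counts scaled to a common library size by the TMM method. Mettl3 was at 92.2 and 124 CPM in WT and at 78.1 and 91.4 CPM in the knockout. That amounts to -0.35 on the log2 scale, short of the threshold (edgeR adjusted p = 0.357), and leaving out WT replicate 2 or 1 gave -0.13 or -0.56. Its exons share 933 bases with Tox4 on the other strand, and the libraries do not mark strand. Reads from exons that Cre leaves in place are included, and the level cannot tell whether the allele was removed. Of the 14 iNKT and T cell markers, 2 fell (Cd44 and Tbx21) and 0 rose. Groups did not overlap for 7 lower and 5 higher markers, against 50.3% of all tested genes in either direction (24.9% lower). Cd3e averaged 475 and 528 CPM and Zbtb16 224 and 352 CPM in WT and knockout. Cd3g (199 and 136 CPM) and Cd3d (341 and 268 CPM) were lower in both knockout libraries, short of the threshold. The invariant receptor segments Trav11 and Traj18 averaged only 1.40 and 3.41 CPM in WT. Of the myeloid and dendritic cell markers, 6 of 12 tested rose and 0 fell. The list summed to 126 to 249.8 CPM in WT and 2067 to 2214 CPM in the knockout. Much of the knockout sum came from H2-Ab1 (591 and 656 CPM), H2-Aa (552 and 549 CPM) and Cd74 (515 and 548 CPM). Lyz2 (325 and 386 CPM), Cd209a and Csf1r were the other markers called. The log2 fold change was negative for 3 of the 12, Cst3, C1qa and C1qb (-0.65, -0.14 and -0.09). No myeloid marker was at 0 in all 4 libraries. CD4+CD8+ thymocyte markers summed to 399.6 to 506 and 656 to 699 CPM, with 0 of 9 called and 5 higher in both knockout libraries. B cell markers (0 of 7 called) summed to 139 to 177 and 139 to 143 CPM with Pax5 at 0 throughout, and stromal and erythroid markers (0 of 7 called) to 12.2 to 16.8 and 12.7 to 14.8 CPM with Psmb11 at 0 throughout. Epcam, at 8.89 and 13.1 CPM in WT and 8.12 and 5.06 CPM in the knockout, made up much of that last sum. Another 4 of those 7 were higher in both knockout libraries, at low levels: Aire (0 and 0 CPM in the WT libraries, then 1.87 and 1.60 CPM), Cdh5 (0 and 0, then 0.622 and 1.28 CPM), Hba-a1 (1.07 and 0.398, then 2.68 and 2.97 CPM) and Hbb-bs (0.356 and 0.478, then 1.01 and 0.722 CPM). Col1a1 went the other way, from 0.462 and 1.19 CPM in WT to 0 and 0 CPM in the knockout, as did Epcam. The part of these other cells in the results below was not tested. In bulk RNA, fewer cells of a type and less RNA per cell cannot be told apart.

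Across the family, 0 of 10 members were called, against 2.59% of all tested genes, and 1 of 10 had an unadjusted p under 0.05, against 20.2% of all tested genes. DESeq2 also called 0 of 10, where it called 9.45% of tested genes, and limma voom 0 of 10, where it called 1.90%. Creb1 and Crebbp were the 2 members whose genotypes did not overlap, both lower in the knockout, and groups did not overlap for 50.3% of tested genes (24.9% lower). The median log2 fold change was -0.07 over the members and 0.02 over all tested genes. The median size of the log2 fold change, regardless of sign, was 0.11 over the members and 0.36 over all tested genes. The members were also more precisely measured than most genes, with a median standard error (SE) of 0.16 on the log2 scale against 0.31.

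**Figure D1:**
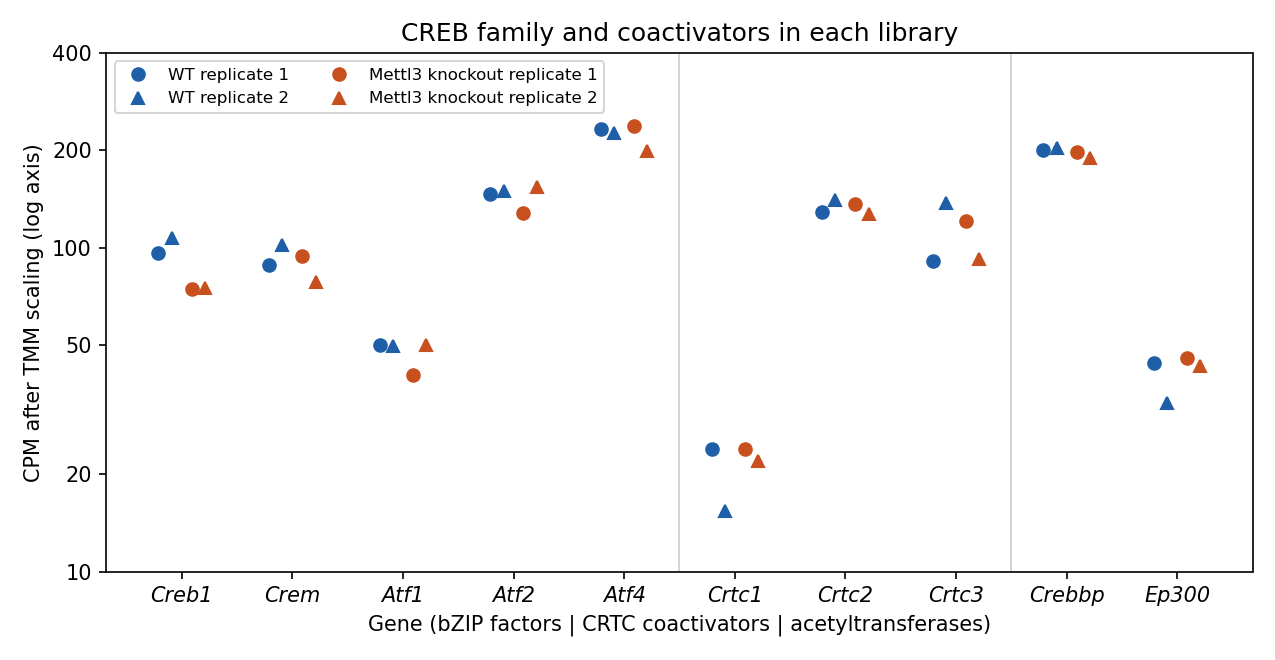
Level of each of the 10 genes in CPM after TMM scaling (log axis) in the 4 libraries, with WT in blue, Mettl3 knockout in orange, circles for replicate 1 and triangles for replicate 2. Creb1 lies at 96.6 and 108 CPM in WT and below both in the knockout; Crebbp is also lower in both knockout libraries, by a smaller margin, and the other genes interleave.

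Creb1 (ENSMUSG00000025958.14; GRCm38 chromosome 1, 64532645 to 64604548, plus strand), the founding factor of the family, was counted at 96.6 and 108 CPM in WT and at 74.97 and 75.3 CPM in the knockout. Both knockout libraries lay below both WT libraries and close to each other. The means were 102 ± 7.75 and 75.1 ± 0.240 CPM (SD, n = 2), a log2 fold change of -0.44 with SE 0.15 and a 95% interval of -0.79 to -0.09. Its unadjusted p was 0.0197 and its edgeR adjusted p 0.158. The difference kept its direction under all 12 alternative analyses, at -0.57 to -0.37, and its adjusted p ranged from 0.0838 to 0.441.

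Crem (ENSMUSG00000063889.16), whose gene makes both activators and the inducible repressor ICER from alternative promoters and exons, was at 88.6 and 102 CPM in WT and at 94.3 and 78.3 CPM in the knockout. The 2 genotypes overlapped, with a log2 fold change of -0.14 (95% interval -0.53 to 0.25; edgeR adjusted p = 0.705). The annotation gives Crem 39 transcripts, the most of any member, and counts per gene do not separate activator from repressor forms. Its exons also share 472 bases with Gm6225 on the other strand.

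Atf1 (ENSMUSG00000023027.13; GRCm38 chromosome 15, 100227819 to 100261244, plus strand), the smaller relative that pairs with CREB1, was at 50.01 and 49.8 CPM in WT and at 40.5 and 50.1 CPM in the knockout. Knockout replicate 1 stood below the other 3 libraries, which were nearly equal. The log2 fold change was -0.14 (95% interval -0.60 to 0.31; edgeR adjusted p = 0.75), and it was 0.0034 without that library.

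To weigh the 3 related factors against each other, levels were divided by exonic length. Creb1 made up 18.3% and 18.9% of the summed CPM per kb of Creb1, Crem and Atf1 in WT, and 15.7% and 15.6% in the knockout. The share was lower in both knockout libraries, by 2.95 percentage points on average. The exact two-sided permutation test gave p = 0.333, the smallest value that 2 libraries against 2 allow. Crem held 37.8% to 46.1% and Atf1 38.2% to 46.6% over the 4 libraries, with overlapping genotypes.

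Atf2 (ENSMUSG00000027104.18; GRCm38 chromosome 2, 73816509 to 73892639, minus strand), the stress-kinase responder, was at 146 and 150.2 CPM in WT and at 128 and 154 CPM in the knockout. The knockout libraries lay on either side of the WT pair, and the log2 fold change was -0.07 (95% interval -0.40 to 0.26; edgeR adjusted p = 0.841). Atf4 (ENSMUSG00000042406.8; GRCm38 chromosome 15, 80255184 to 80257541, plus strand), whose protein output is controlled largely at translation, was at 233 and 227 CPM in WT and at 239 and 199.6 CPM in the knockout. It too straddled the WT values, with a log2 fold change of -0.07 (95% interval -0.37 to 0.23; edgeR adjusted p = 0.821).

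Crtc2 (ENSMUSG00000027936.18; GRCm38 chromosome 3, 90254163 to 90264125, plus strand), a CREB coactivator shuttled by phosphorylation, was at 129 and 141 CPM in WT and at 137 and 127 CPM in the knockout. Its log2 fold change was the smallest of the family at -0.03 (95% interval -0.34 to 0.28; edgeR adjusted p = 0.924). Crtc3 (ENSMUSG00000030527.15; GRCm38 chromosome 7, 80586627 to 80688877, minus strand) was at 91.0 and 138 CPM in WT and at 121 and 92.7 CPM in the knockout. The spread within each genotype, 1.51-fold in WT and 1.31-fold in the knockout, exceeded the difference of the means, and the log2 fold change was -0.09 (95% interval -0.62 to 0.45; edgeR adjusted p = 0.882). Leaving out WT replicate 1 gave -0.37, and leaving out the other WT library gave 0.23.

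Crtc1 (ENSMUSG00000003575.13; GRCm38 chromosome 8, 70382355 to 70439579, minus strand), the form best known from neurons, had the lowest count of any member. It was at 23.9 and 15.4 CPM in WT and at 23.9 and 21.9 CPM in the knockout, so WT replicate 2 stood apart from the other libraries. The log2 fold change was 0.21 with the widest interval of the family (-0.47 to 0.90; edgeR adjusted p = 0.754), and it ran from -0.06 without WT replicate 2 to 0.56 without WT replicate 1. Per kb of exon, Crtc2 held 69.2% to 73.5% of the summed CRTC signal, Crtc3 21.5% to 28.05% and Crtc1 2.77% to 4.98%. No CRTC share separated the genotypes.

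Crebbp (ENSMUSG00000022521.10; GRCm38 chromosome 16, 4081328 to 4213997, minus strand), the gene of the acetyltransferase CBP, was at 201 and 203 CPM in WT and at 199 and 189 CPM in the knockout. Both knockout libraries were lower, but the log2 fold change was only -0.06 with the narrowest interval of the family (-0.33 to 0.20; edgeR adjusted p = 0.823). Ep300 (ENSMUSG00000055024.12; GRCm38 chromosome 15, 81585351 to 81652077, plus strand), the gene of its paralog p300, was at 44.0 and 33.3 CPM in WT and at 45.9 and 43.2 CPM in the knockout. As with Crtc1, WT replicate 2 was the low library, and the log2 fold change of 0.20 (95% interval -0.30 to 0.70; edgeR adjusted p = 0.674) was 0.01 without it and 0.41 without WT replicate 1. Crebbp made up 82.8% and 86.5% of the pair's CPM per kb in WT and 82.0% and 82.2% in the knockout (exact two-sided permutation p = 0.333, the smallest possible).

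**Figure D2:**
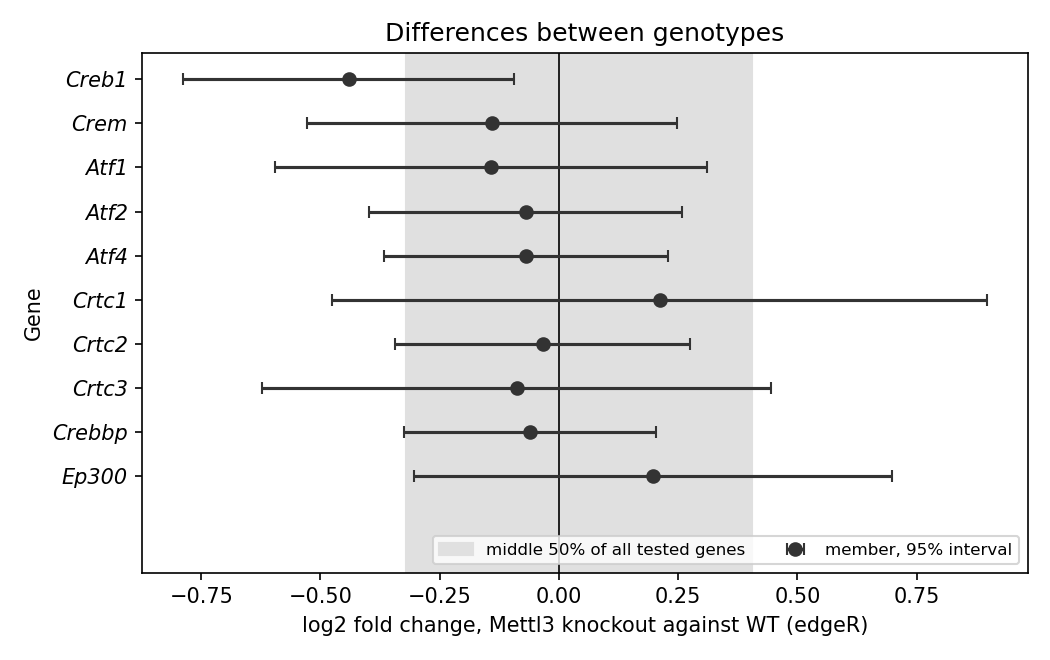
log2 fold change (knockout against WT, edgeR) of each gene with its 95% interval as a bar; the grey band holds the middle 50% of all tested genes, from -0.32 to 0.40. Creb1 is the one gene whose interval lies to one side of 0 (-0.79 to -0.09, before adjustment for the number of genes tested).

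The intervals given above describe variation among these libraries, gene by gene and before adjustment for the number of genes tested. They do not bound an effect of genotype, because the libraries may not be separate animals. They also take no account of the higher myeloid marker sum in the knockout. As knockout-to-WT ratios, the interval for Crebbp ran from 0.798 to 1.15 and that for Crtc2 from 0.788 to 1.21. The Atf4 interval ran from 0.775 to 1.17 and the Atf2 interval from 0.759 to 1.20. The Crtc1 interval was wider, from 0.720 to 1.86. A value that misses the threshold does not show that a gene was equal in the 2 genotypes.

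**Figure D3:**
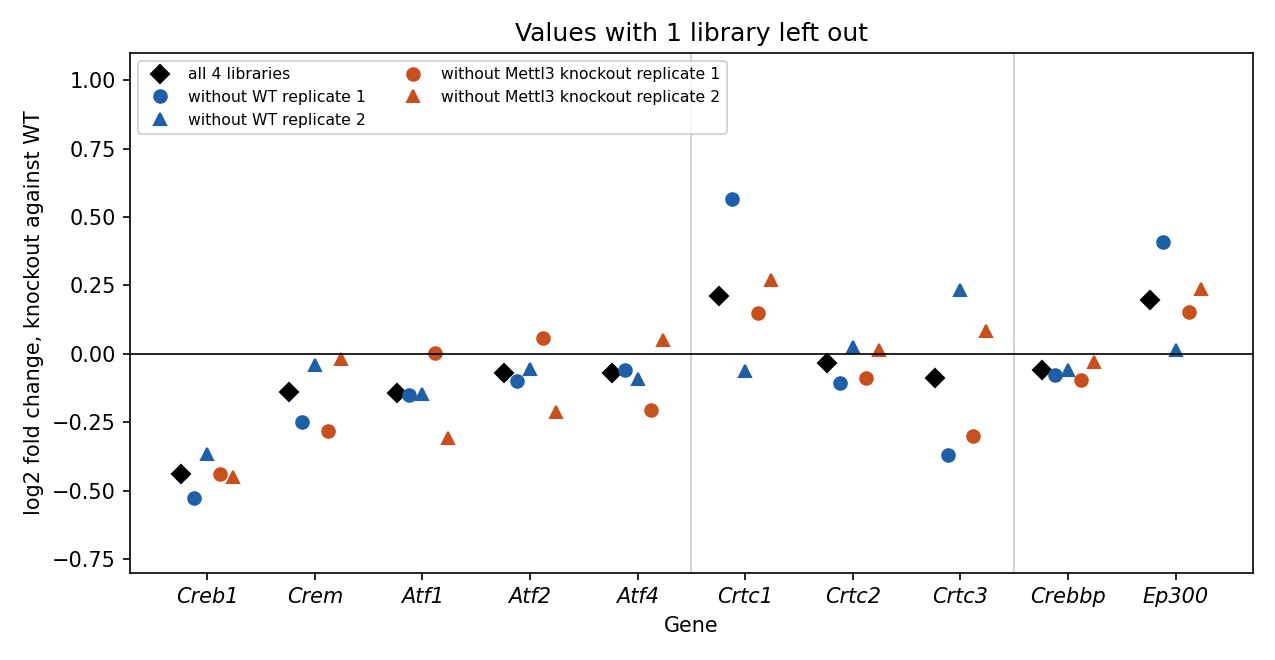
log2 fold change of each gene with all 4 libraries (black diamonds) and with 1 library left out (blue, a WT library; orange, a knockout library). Creb1, Crem, Crebbp and Ep300 keep their sign in all 4 cases, while Atf1, Atf2, Atf4, Crtc1, Crtc2 and Crtc3 cross 0 in at least 1.

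Levels per kb of exon set the members in order. Atf4 stood first, at 97.5 ± 1.93 CPM per kb in WT and 93.0 ± 11.8 in the knockout (SD, n = 2), followed by Crtc2 at 33.0 ± 2.06 and 32.2 ± 1.66. Atf2 (18.1 in WT), Atf1 (16.3), Crem (16.2) and Crebbp (14.9) came next, and over the 4 libraries the ranges of neighbours among these overlapped; Atf1 exceeded Crem in 2 of the 4 libraries. Crtc3 at 11.6, Creb1 at 7.43, Ep300 at 2.71 and Crtc1 at 1.76 CPM per kb in WT followed in that order in every library. Exonic length counts every annotated exon (13742 bases for Creb1, 2358 for Atf4), and which exons these cells use was not measured, so the order depends on the annotation.

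METTL3 favours a short sequence context of which GGACT is a common form, so this motif was counted on the sense strand of each member's longest coding transcript. Atf2 had 0.238 per kb, Creb1 0.478 (4 in 8364 bases), Atf4 0.580 and Crem 0.682, all below the median of 1.05 over 11701 tested genes with such a transcript. Ep300 was close to that median (1.05), and Crtc2 (1.09), Crtc3 (1.17), Crtc1 (1.23), Crebbp (1.48) and Atf1 (1.69) were above it. Whether these sites carry m6A was not measured here.

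CREB family factors bind the sequence TGACGTCA or its half-site TGACG, and some of the genes of the family carry such sites themselves. The 250 bases before the RefSeq start (build GRCm38.p6) were available for 8 members. On either strand TGACGTCA occurred in 0 of the 8 and TGACG in 2, Atf1 and Atf4; over all 32851 promoter windows the shares were 1.55% and 17.8%. Each full site also counts as overlapping half-sites. The sites are shown in 60-base stretches on the gene's strand, 5′ to 3′, with the half-site or its reverse complement CGTCA in capitals. The half-site begins 90 bases before the start of Atf1 (chr15:100227743-100227802, plus strand) and 12 bases before that of Atf4 (chr15:80255124-80255183, plus strand).
Atf1: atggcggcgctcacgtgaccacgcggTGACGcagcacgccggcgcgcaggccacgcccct
Atf4: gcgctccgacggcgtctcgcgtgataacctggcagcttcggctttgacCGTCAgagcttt
Neither gene differed past the threshold between genotypes, as given above, and a match describes the letters, not binding.

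Genes around the family were grouped by role, and their counts are given beside the 1.51% of tested genes called lower and the 1.09% called higher. An unadjusted p under 0.05 in the edgeR test was found for 20.2% of all tested genes. The lists were chosen with earlier results of these data known, so a count above these shares is no test of a list. Among other CREB and ATF bZIP factors, 0 of 10 tested genes were called by edgeR, 0 had an unadjusted p under 0.05, and DESeq2 and limma voom called 0; the median log2 fold change was 0.04. The smallest p belonged to Creb3l2, a membrane-anchored factor of the secretory pathway, at 5.76 and 7.40 CPM in WT and 18.6 and 7.26 CPM in the knockout. One knockout library held that difference (log2 fold change 0.99; edgeR adjusted p = 0.346), which was 0.15 without it. Crebzf and Creb3l1 had log2 fold changes of -0.53 and 0.82 (edgeR adjusted p = 0.461 and 0.708). Other lysine acetyltransferases also gave 0 called of 14 tested, with 2 at an unadjusted p under 0.05, 1 called by DESeq2 and 0 by limma voom, and a median of 0.04. Kat7, which acetylates histones at replication origins, was at 149.9 and 151 CPM in WT and at 115 and 114 CPM in the knockout (log2 fold change -0.40; edgeR adjusted p = 0.138), and Kat14 and Ncoa3 had values of 0.46 and 0.32 (0.245 and 0.30). Kat14 shares 693 exonic bases with Pet117 on the same strand.

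Upstream of CREB, 1 of 25 tested genes of cAMP and protein kinase A signalling fell and 0 rose, with a median log2 fold change of -0.12. An unadjusted p under 0.05 was found for 11 of the 25, against the 20.2% of all tested genes. The gene that fell was Prkar1a, the main regulatory subunit that holds the kinase inactive until cAMP binds. It was at 1853 and 1975 CPM in WT and at 1392 and 1316 CPM in the knockout, 1.41-fold lower (log2 fold change -0.50; edgeR adjusted p = 0.024). The call held without WT replicate 1 (adjusted p = 0.0339) and was lost without the other WT library (0.0714) and on leaving out either knockout library (0.138 and 0.18). Prkar2a, another regulatory subunit, was at 34.0 and 47.9 CPM in WT and 10.3 and 17.2 CPM in the knockout (log2 fold change -1.57; edgeR adjusted p = 0.0529). Ptger2, a prostaglandin E2 receptor that raises cAMP, went the other way, from 3.13 and 5.77 CPM to 17.7 and 16.4 CPM (log2 fold change 1.96; edgeR adjusted p = 0.0529). Neither passed the edgeR test, and DESeq2 gave adjusted p-values of 0.000922 and 0.0028.

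Among CREB kinases and CRTC regulators, 1 of 19 tested genes rose and 1 fell, and the median was -0.06. An unadjusted p under 0.05 was found for 6 of the 19, against 20.2% of all tested genes. Ppp3cc, a catalytic subunit of calcineurin, the phosphatase that releases CRTC proteins into the nucleus, was at 136 and 140.4 CPM in WT and at 38.1 and 38.0 CPM in the knockout. It fell 3.63-fold (log2 fold change -1.86; edgeR adjusted p = 0.00305), with the genotypes far apart and replicates nearly equal, and it passed whichever library was left out (0.0172 to 0.0406). Stk11, which encodes LKB1, the activator of the salt-inducible kinases that keep CRTC proteins in the cytoplasm, was at 107 and 106 CPM in WT and at 174 and 175 CPM in the knockout. It rose 1.64-fold (log2 fold change 0.72; edgeR adjusted p = 0.0351) but the call was lost whichever library was left out (0.101 to 0.207), and 232 of its exonic bases overlap Cbarp on the other strand. Sik2, one of those kinases, was at 15.8 and 21.4 CPM in WT and 32.8 and 41.5 CPM in the knockout (log2 fold change 1.01; edgeR adjusted p = 0.0977). It shares 1429 exonic bases with Ppp2r1b on the other strand.

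Of 20 tested genes known to be induced through CREB, 5 fell and 1 rose, and the median was -0.09. An unadjusted p under 0.05 was found for 10 of the 20, against 20.2% of all tested genes. Rgs2, a brake on G protein signalling, was at 397 and 437 CPM in WT and at 176 and 149 CPM in the knockout, 2.56-fold lower (edgeR adjusted p = 0.0043). It passed whichever library was left out (0.0192 to 0.0492). Egr1, an early response factor, was the one that rose, from 275 and 278 CPM to 540.5 and 468 CPM (1.82-fold; edgeR adjusted p = 0.0119). The other 4 that fell were Gem, a small GTPase gene (2.53-fold; edgeR adjusted p = 0.025), Dusp1, a MAP kinase phosphatase (1.80-fold; 0.0279), Ier2 (1.39-fold; 0.0464) and Junb, an AP-1 subunit (1.53-fold; 0.0475). For each of these 6 genes both knockout libraries lay on one side of both WT libraries. The same held for 50.3% of all tested genes, and the call itself favours genes that separate, so this adds no support. For Egr1, Gem, Dusp1 and Ier2 every fit on 3 libraries lost the call (adjusted p 0.0531 to 0.276), and Junb was called in 1 of its 4 such fits, without WT replicate 2 (0.0282). Junb shares 173 exonic bases with Prdx2 on the other strand. Many of these genes answer to other pathways too. The myeloid marker sum given above was higher in the same knockout libraries, and its part in these differences was not tested.

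**Figure D4:**
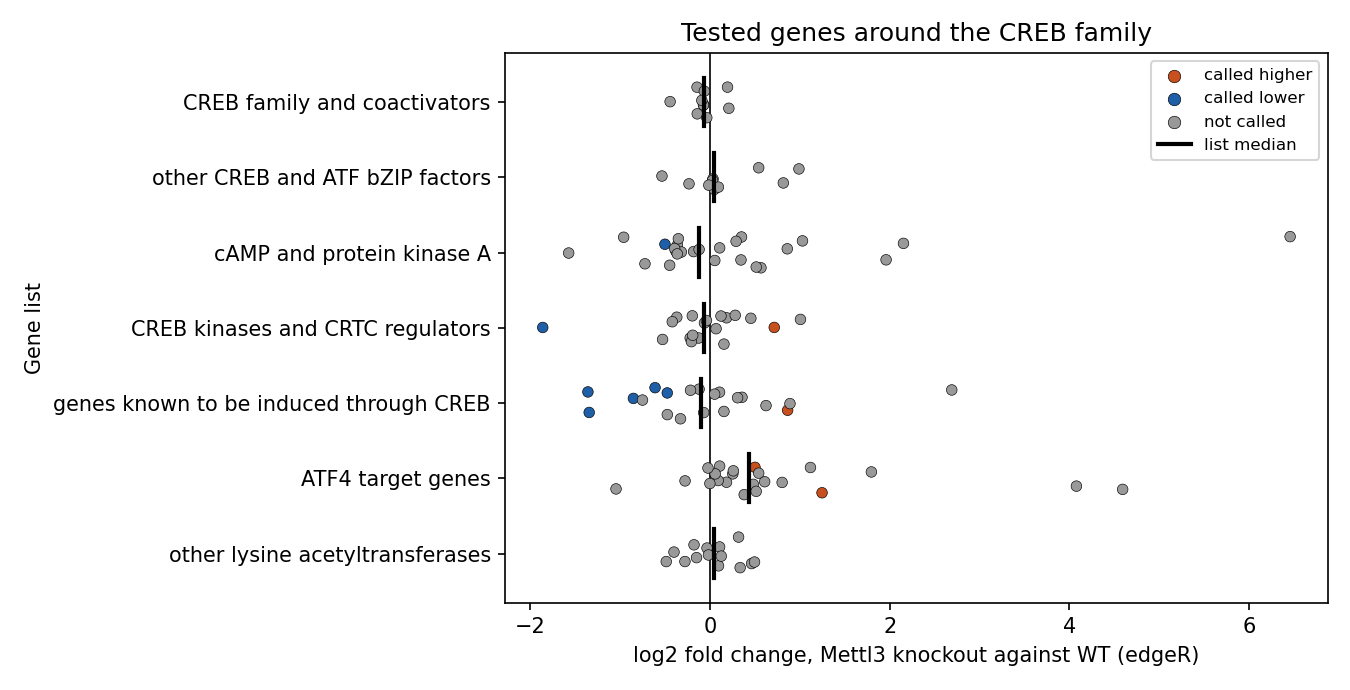
log2 fold change (knockout against WT, edgeR) of every tested gene of the family and of 6 lists around it; orange and blue points were called higher and lower, grey points were not called, and the black bar is the list median. The family and the other bZIP factors hold no called gene, while 5 genes known to be induced through CREB were called lower and 1 higher.

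Of these 20 genes, 16 had a RefSeq window, with TGACG in 14 and TGACGTCA in 2, where 19.8% and 1.77% of all 27025 genes hold them. Genes can enter such a list because they carry this site, so the count describes the list and supports nothing about it. Of the 5 that fell, windows were available for Dusp1, Junb and Rgs2, and all 3 held a half-site; they are printed because these genes fell. Each stretch is on the gene's strand, 5′ to 3′, with half-sites in capitals as before. Dusp1 (chr17:26508582-26508641, minus strand) has a full site, Junb (chr8:84978821-84978880, minus strand) has 1 half-site, and for Rgs2 (chr1:144004301-144004360, minus strand) the half-site farther from the start is shown.
Dusp1: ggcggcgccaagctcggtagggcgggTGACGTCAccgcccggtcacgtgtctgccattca
Junb: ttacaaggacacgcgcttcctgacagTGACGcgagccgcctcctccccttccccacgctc
Rgs2: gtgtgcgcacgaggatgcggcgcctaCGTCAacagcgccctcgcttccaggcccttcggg
Occupancy of these sites was not measured.

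Of 22 tested ATF4 target genes, 2 rose and 0 fell, and 12 had an unadjusted p under 0.05, against 20.2% of all tested genes. The log2 fold change was positive for 19 of the 22, against 51.3% of all tested genes, and the median was 0.43 against 0.02. It was negative for 3, Cebpb, Phgdh and Psph (-1.04, -0.28 and -0.02). Cebpb and Phgdh were lower in both knockout libraries. Atf4 itself was at -0.07. Slc1a5, a glutamine transporter gene, was at 522 and 507 CPM in WT and at 695 and 763 CPM in the knockout (1.42-fold higher; edgeR adjusted p = 0.041). Sesn2, a stress-induced inhibitor of mTORC1, was at 19.0 and 17.3 CPM in WT and at 40.0 and 46.6 CPM in the knockout (2.38-fold higher; edgeR adjusted p = 0.041). Ddit4, which also restrains mTORC1, was at 19.9 and 28.1 CPM and at 51.3 and 52.5 CPM (log2 fold change 1.12; edgeR adjusted p = 0.0534). Both genotypes were separate for all 3, which were picked by smallest p, and groups did not overlap for 50.3% of all tested genes. Slc1a5 and Sesn2 lost their calls whichever library was left out, and the list held 0 calls with no filter on low counts.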

How the data were processed

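The authors deposited raw read counts per gene, 1 column per library, for 53715 Ensembl gene IDs. Build mm10 is named in the submitters' processing notes, beside STAR 2.6.0a, HTSeq 0.6.1, FastQC 0.11.5 and DESeq2 1.18.1. Their roles, annotation and strand setting are not stated there. Libraries were Smart-seq2, per the labels' protocols, and overlapping genes on opposite strands cannot be separated. IDs were matched to GENCODE M21 (GRCm38), 53620 without and 51464 with the version, including all 10 members with it.

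Counts were filtered by filterByExpr, TMM-scaled and compared over all 4 libraries with edgeR 4.0.16 in R 4.3.3 (glmQLFit with legacy=FALSE and robust=TRUE, glmQLFTest, two-sided, no covariate, 2 residual degrees of freedom, Benjamini-Hochberg over 14185 genes). SE is the log2 fold change over the square root of F. In simulated counts of this comparison, run on 13472 genes, 61 of 100 planted changes of 1 and 95 of 100 of 2 on the log2 scale were recovered. Changes were planted only in genes with higher counts, and variation followed the trend over all genes rather than each gene. Recovery for low genes, or for genes more variable than the trend, was therefore not measured. Alternatives were RLE and total-count scaling, DESeq2 1.42.0, limma 3.58.1 voom, 2 other filters, removal of the trend with exonic length, a replicate block, and each library left out. Replicates differed beyond counting noise (chi-square per degree of freedom 45.6 in WT, 27.97 in the knockout).

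Members and lists were chosen with earlier results of these data known. Named genes are the members, Mettl3, and from each of the 6 lists around the family the 3 smallest p plus all called. The 3 ATF4 targets with a negative log2 fold change are named too. Markers named were Cd3e, Zbtb16, Trav11, Traj18 and those at 0, picked after their values were seen. So were Cd44, Tbx21, Cd3g, Cd3d, Epcam, Col1a1, Aire, Cdh5, Hba-a1 and Hbb-bs. The myeloid markers named are those called and those with a negative log2 fold change. Promoter sequences are RefSeq's (GRCm38.p6), of which the 250 bases before the start were searched.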

Additional observations from a re-analysis of the deposited data

How the results depend on the processing

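No alternative called any of the 10 members. Of 120 member values under 12 alternatives each, 111 kept their direction and 9 reversed, 8 of them on leaving out 1 library. Leaving out 1 library gave log2 fold changes of -0.31 to 0.0034 for Atf1, -0.21 to 0.0572 for Atf2, -0.21 to 0.0497 for Atf4, -0.0619 to 0.56 for Crtc1, -0.11 to 0.0267 for Crtc2 and -0.37 to 0.23 for Crtc3; the cause was not tested. Total-count scaling also turned Crtc2 to 0.02 (0.01996).

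The number of called genes over the whole table was 368. It was 1341 with DESeq2, 727 at 5 CPM or more in 2 libraries, 33 with the replicate block and 41 to 172 with 1 library left out. Removing the length trend gave 126 higher and 321 lower, against 154 and 214, and moved the median of all tested genes from 0.02 to -0.08. Calls in the cAMP list (1) were 2 with total-count scaling, 8 with DESeq2, 4 at 5 CPM, 3 with the length trend removed and 0 to 1 without a library. Kinases and CRTC regulators (2) gave 4 with DESeq2, 3 with the length trend removed and 1 whichever library was left out. CREB-induced genes (6) gave 4 with no filter, 4 with total-count scaling, 8 with DESeq2 and 1 to 2 without a library. ATF4 targets (2) gave 6 with DESeq2, 5 at 5 CPM, 3 with total-count scaling, 1 with the length trend removed, 0 with no filter and 0 whichever library was left out. Acetyltransferases (0) gave 1 with DESeq2.

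Same-numbered libraries did not deviate together (r = -0.03), so the numbers are not treated as pairs. With the replicate block, which leaves 1 residual degree of freedom, the lists gave 0 (cAMP), 1 (kinases), 0 (CREB-induced) and 0 (ATF4) calls.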
